A study of Mus musculus with 24 samples.

Results

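The stromal matrix transcripts described here are 40 genes that were chosen by name, with earlier results of these libraries known, out of 37979 genes measured. Each of the 40 symbols matched 1 row, and all 40 passed the filter on low values, which asked for a group mean of 1 FPKM or more somewhere among the 8 groups. They encode 5 fibrillar collagens, 7 other collagens, 7 proteoglycans and microfibril or elastic fibre proteins, 7 matricellular or secreted proteins, 3 enzymes of collagen processing and crosslinking, 5 mesenchymal receptors and transcription factors and 4 cytoskeletal or junction proteins, and 2 are long noncoding RNAs. Because values of all groups were in view when the list was drawn up, the levels and differences of these 40 genes are given as a description. No p-value is printed for a single member, and calls among the members are only counted, beside the same count over all genes, with nothing read from them.

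RNA sequencing was run on 24 libraries of macrophages and monocytes sorted from perfused lungs of C57BL/6 males of 10 to 16 weeks, in 8 groups of 3 libraries. The tumour groups were MacB3-3wk and MacB3-2wk (CD11b+, Ly6G-, CD64hi, CD11c+), MacB2-2wk and MacB2-3wk (CD11b+, Ly6G-, CD64med, CD11c-) and MacA-2wk (SiglecF+, CD11c+), and the naive groups were MacB2-N, MacB1-N (CD11b+, Ly6G-, CD64low, CD11c+) and MacA-N. Tumour mice had received 100000 LLC-Luc cells, Lewis lung carcinoma cells that carry luciferase, in PBS with 15% Matrigel in the left lung, and their lungs were taken 2 or 3 weeks later. Matrigel is itself a basement membrane extract, and the naive mice were not injected. Tumour groups used the left lobe with the tumour and naive groups all lobes, so tumour and kind of tissue cannot be told apart. Each library pooled the tissue of 3 to 5 mice, and cells were isolated in 3 independent experiments. The listed antibodies were against CD11b, SiglecF, Ly6G, CD64 and CD11c, and none was against a fibroblast, endothelial or epithelial surface protein. In bulk RNA of sorted cells, fewer cells of a type and less RNA per cell cannot be told apart.

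Fibroblasts and other mesenchymal cells build the collagen scaffold of tissues. Fibrillar collagens are secreted as procollagens, trimmed by proteinases such as Bmp1 and crosslinked by lysyl oxidases, while small proteoglycans such as decorin and lumican bind the fibrils and set their spacing. Type IV collagen lies in basement membranes beneath endothelium and epithelium, and matricellular proteins such as tenascin C and periostin are secreted into matrix under repair or in tumours. Carcinoma cells that have taken on mesenchymal features can also transcribe matrix genes, and macrophages engulf matrix and cell debris.

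The values are FPKM, fragments scaled by transcript length and library size, as the authors deposited them. Changes are given as log2 differences of FPKM + 1 from a limma fit to all 24 libraries, with the standard error (SE), which understates the change of genes at low levels. A gene is called here when its Benjamini-Hochberg adjusted p over the 17156 genes tested was under 0.05 and its fold was at least 2. Absolute depth is unknown, and the steps between low values put the relative depth of the libraries between 0.518 and 1. Lane 1 held every MacA library, and replicates 1, 2 and 3 of each MacB group on lanes 2, 3 and 7, so lane and population cannot be told apart between MacA and MacB groups. The sort was visible in its own transcripts, with Siglecf at 146 ± 23.1 FPKM in MacA-2wk and 231 ± 69.98 in MacA-N (mean ± SD, n = 3, as in all such values here) and at 5.25 FPKM or less on average in every MacB group. Itgam averaged 213 to 300.0 FPKM in the MacB groups, Ptprc, which encodes the pan-leukocyte protein CD45, 53.8 to 265 FPKM in all 8 groups, and Csf1r 71.4 to 524 FPKM.

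2 libraries stood apart from their groups in the 40 genes. The mean log2(FPKM + 1) over the 40 genes was 3.82 in MacA-2wk replicate 3, against 1.63 and 1.61 in replicates 1 and 2, and 39 of the 40 genes were highest in replicate 3, with a median ratio of 6.61 to the mean of the other pair. In that library the mean over 12 endothelial markers was 4.29, against 2.60 and 2.51 in replicates 1 and 2, the mean over 13 lung epithelial markers was 4.49, against 2.10 and 2.41, and the mean over 15 macrophage and monocyte markers was 5.97, against 6.76 and 6.55. In MacB2-N replicate 3 the 40 genes averaged 2.25, against 1.58 and 1.25 in replicates 1 and 2, and the 12 endothelial markers averaged 5.13, against 3.39 and 3.42. MacB2-2wk replicate 2 stood apart in other markers, with an endothelial mean of 5.31, against 3.77 and 3.95 in replicates 1 and 3, and a mean of 4.46 over the neutrophil markers, against 3.56 and 2.93, while its mean over the 40 genes was 3.36, against 3.03 and 3.35. Counts of called members are given with and without these libraries. Most calls of single markers and of other genes are given with all libraries only.

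**Figure D1:**
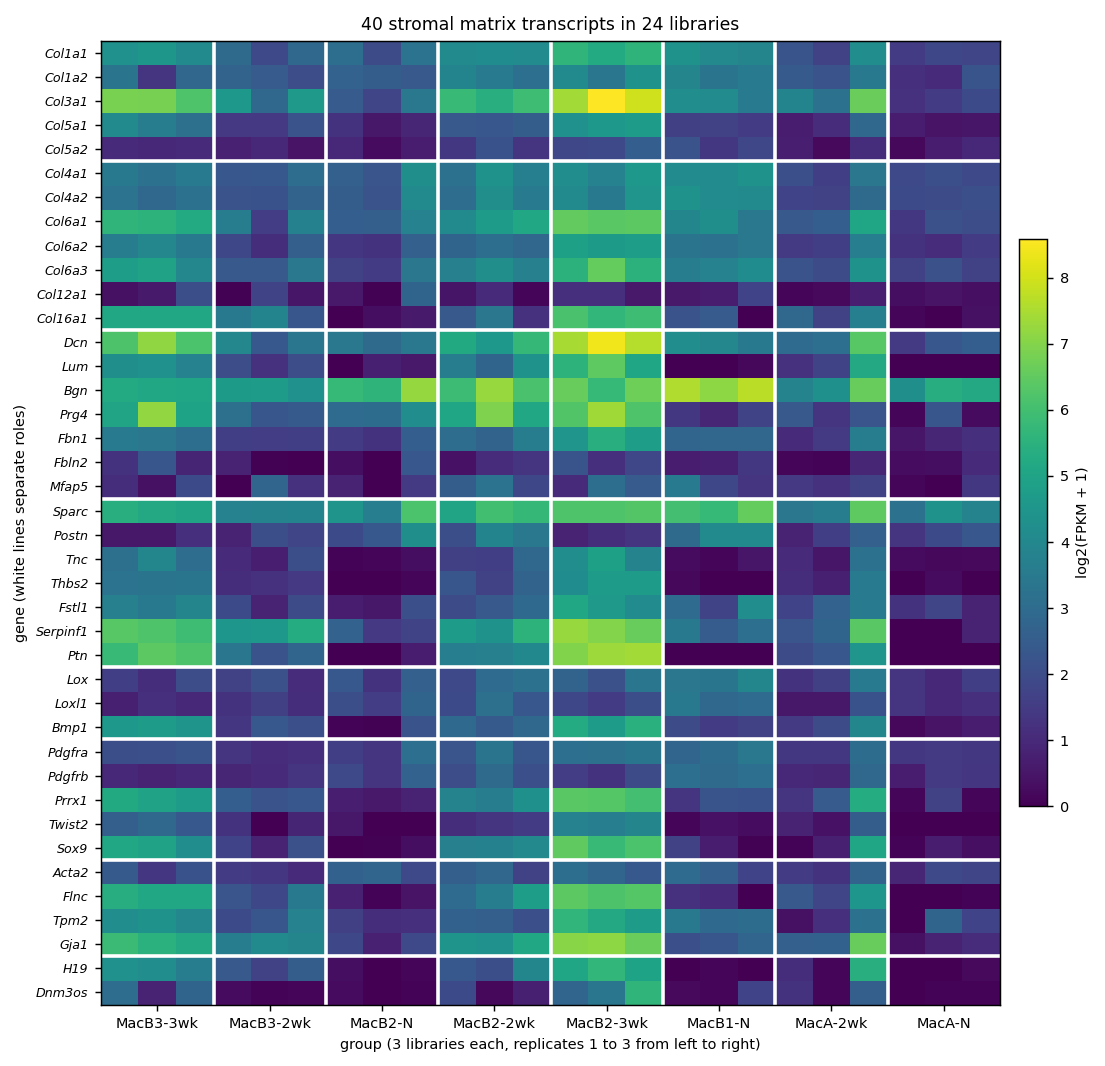
Level of each of the 40 genes in each library, as log2(FPKM + 1), with genes grouped by role and libraries by group. MacB2-3wk is the brightest block, MacB3-3wk the next, and the third library of MacA-2wk stands out from the other 2 of its group.

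The 40 genes were most abundant in MacB2 cells of 3-week tumours. Their summed level was 234 ± 155 FPKM in MacB2-N cells, 610 ± 129 in MacB2-2wk and 2072 ± 254 in MacB2-3wk, and the lowest MacB2-3wk library (1908 FPKM) stood above the highest library of any other group (1085 FPKM, in MacB3-3wk). MacB3 cells had sums of 923 ± 164 FPKM at 3 weeks and 215 ± 35.3 at 2 weeks. The sum was 405 ± 497 FPKM in MacA-2wk, 89.9 ± 30.1 in MacA-N and 486 ± 64.6 in MacB1-N. The group mean was highest in MacB2-3wk for 31 of the 40 genes, in MacB1-N for 7 (Bgn, Col4a1, Col4a2, Postn, Lox, Loxl1 and Pdgfrb), in MacB2-N for Col12a1 and in MacB2-2wk for Mfap5. 9 of the 40 were under 1 FPKM on average in every naive group, and the other 31 reached 1 FPKM in at least 1 of them.

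Upstream sequences are shown for 3 of the 9 genes that were under 1 FPKM on average in every naive group (Ptn, Thbs2 and Tnc). Sequences are also shown for 2 that were highest in naive MacB1-N (Postn and Bgn), so that the letters can be read beside their levels. They are the 250 bases before the gene start in RefSeq (GRCm38.p6), 5′ to 3′ on the strand of the gene, and capitals mark TATAAA and CCAAT read on either strand. The Ptn window is chr6:36810180-36810429 on the minus strand, the Thbs2 window chr17:14694263-14694512 on the minus strand, the Tnc window chr4:64047016-64047265 on the minus strand, the Postn window chr3:54359017-54359266 on the plus strand and the Bgn window chrX:73483351-73483600 on the plus strand. The GENCODE starts used for gene positions are other than these RefSeq starts for 4 of the 5, by 1 base for Bgn, 27 for Thbs2, 41 for Ptn and 1842 for Postn, whose GENCODE start lies downstream of the window shown.
Ptn: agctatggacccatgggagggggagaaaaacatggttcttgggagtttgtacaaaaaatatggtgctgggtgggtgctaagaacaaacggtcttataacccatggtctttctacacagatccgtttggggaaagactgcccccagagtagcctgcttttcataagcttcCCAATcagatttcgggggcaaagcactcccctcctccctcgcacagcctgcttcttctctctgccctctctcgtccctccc
Thbs2: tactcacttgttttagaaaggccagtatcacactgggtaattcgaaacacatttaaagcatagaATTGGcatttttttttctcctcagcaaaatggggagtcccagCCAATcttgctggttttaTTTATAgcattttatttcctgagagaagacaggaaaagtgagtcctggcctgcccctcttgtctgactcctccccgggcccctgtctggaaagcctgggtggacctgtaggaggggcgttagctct
Tnc: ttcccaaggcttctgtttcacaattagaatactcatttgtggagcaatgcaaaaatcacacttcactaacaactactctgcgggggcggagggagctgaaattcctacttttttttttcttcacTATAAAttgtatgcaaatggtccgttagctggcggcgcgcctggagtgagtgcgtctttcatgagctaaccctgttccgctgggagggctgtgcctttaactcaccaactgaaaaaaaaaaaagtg
Postn: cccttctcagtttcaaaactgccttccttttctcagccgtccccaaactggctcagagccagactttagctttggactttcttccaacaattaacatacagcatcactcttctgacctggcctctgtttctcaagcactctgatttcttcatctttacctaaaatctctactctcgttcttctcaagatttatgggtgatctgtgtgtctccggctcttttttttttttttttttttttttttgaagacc
Bgn: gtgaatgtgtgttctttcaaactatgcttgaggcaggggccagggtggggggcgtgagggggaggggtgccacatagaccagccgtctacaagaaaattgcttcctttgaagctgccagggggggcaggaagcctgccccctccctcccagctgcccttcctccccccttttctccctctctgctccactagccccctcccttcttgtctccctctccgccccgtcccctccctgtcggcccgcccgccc
RefSeq windows matched 27 of the 40 genes. TATAAA was present in 3 of them (Col3a1, Thbs2 and Tnc; 11.1%), against 12.97% of all 27025 windows of the same length, CCAAT in 9 (33.3%), against 34.5% of all, and the GC box GGGCGG in 13 (48.1%), against 32.9% of all, with both strands read and each window counted once per motif. In the Ptn window CCAAT lay 81 to 77 bases before the start, and in the Tnc window TATAAA lay 126 to 121 bases before it. A match is only a match of letters.

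Fibrillar collagens form the load-bearing fibres of connective tissue. Col3a1 (ENSMUSG00000026043, chromosome 1, 45311538 to 45349706, GRCm38), which encodes type III collagen, had the highest MacB2-3wk mean of the 40 genes. It was at 4.56, 2.47 and 9.84 FPKM in the 3 MacB2-N libraries, 53.9, 41.5 and 59.9 in MacB2-2wk and 167, 384 and 247 in MacB2-3wk, in the order of the replicates. The 3 groups did not overlap, with MacB2-2wk above MacB2-N and MacB2-3wk above MacB2-2wk. Col3a1 was at 115, 112 and 73 FPKM in MacB3-3wk and 23.1, 6.44 and 23.4 in MacB3-2wk, at 13.7, 8.52 and 98.7 in MacA-2wk and 1.31, 1.81 and 2.81 in MacA-N, and at 17.4, 16.5 and 10.3 in MacB1-N. Its log2 change was 5.41 (SE 0.65) for MacB2-3wk against MacB2-N and 3.14 (SE 0.65) for MacB2-2wk against MacB2-N, 2 comparisons that share the MacB2-N libraries.

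Col1a1, the main chain of type I collagen, was at 7.58, 3.00 and 8.56 FPKM in MacB2-N cells, 16.1, 17.3 and 16.6 in MacB2-2wk and 47.7, 37.5 and 47.4 in MacB2-3wk. In naive MacB1-N it was at 19.7, 15.5 and 14.1 FPKM, which overlapped MacB2-2wk, while each MacB2-3wk library was above every naive library. Col3a1 stood at a mean ratio of 6.32 ± 3.50 to Col1a1 in MacB2-3wk, 5.23 ± 0.71 in MacB3-3wk, 3.12 ± 0.63 in MacB2-2wk, 3.13 ± 0.69 in MacB3-2wk and 4.40 ± 1.11 in MacA-2wk, against 0.84 to 0.89 in the 3 naive groups. The ratio was at least 2.35 in each of the 15 tumour libraries and at most 1.15 in each of the 9 naive libraries, and MacA-2wk replicate 3 was in the range of the other tumour libraries. Col5a1, a chain of the type V collagen that nucleates fibrils, was at 1.41, 0.452 and 0.902 FPKM in MacB2-N cells, 4.24, 4.02 and 4.72 in MacB2-2wk and 19.2, 23.2 and 26.1 in MacB2-3wk, and at 2.11, 2.24 and 1.81 in MacB1-N. Col1a2 and Col5a2 were lower, with means of 15.2 ± 5.49 and 3.39 ± 1.29 FPKM in MacB2-3wk, and of 11.2 ± 2.66 and 2.60 ± 0.991 FPKM in MacB1-N, and for both genes the libraries of these groups overlapped.

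Among the other collagens of the 40, Col6a1, a chain of the type VI collagen that forms beaded filaments around cells, had the highest MacB2-3wk mean. Col6a1 was at 4.95, 5.13 and 12.9 FPKM in MacB2-N cells, 16.3, 25.6 and 34.2 in MacB2-2wk and 91.3, 82.1 and 85.1 in MacB2-3wk, with 48.6, 46.2 and 37.5 in MacB3-3wk and 11.1, 1.96 and 12.8 in MacB3-2wk. Col6a3 was at 2.25, 1.90 and 9.65 FPKM in MacB2-N cells, 12.5, 18.02 and 12.4 in MacB2-2wk and 45.04, 92.5 and 44.4 in MacB2-3wk. Both were lower in naive libraries than in any MacB2-3wk library, and Col6a2 ran from 24.4 to 28.5 FPKM in MacB2-3wk and from 1.41 to 5.18 in MacB2-N. Col16a1, a fibril-associated collagen, was at 0, 0.258 and 0.541 FPKM in MacB2-N cells, 4.29, 9.61 and 1.33 in MacB2-2wk and 69.1, 51.05 and 60.1 in MacB2-3wk. It was 1 of the 3 members with a higher mean in MacB3-2wk (10.01, 13.7 and 3.86 FPKM) than in MacB2-2wk. Col12a1, another fibril-associated collagen, ran from 0.0331 to 5.79 FPKM in all libraries, and its MacB2-N mean rests on replicate 3 (0.511, 0.0331 and 5.79 FPKM).

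Col4a1 and Col4a2, the chains of the common type IV collagen of basement membranes, start 21 bases apart on opposite strands of chromosome 8 (11198423 to 11312826 on the minus strand and 11312805 to 11449287 on the plus strand, GRCm38). Col4a1 was at 5.19, 3.76 and 18.2 FPKM in MacB2-N cells, 8.34, 20.3 and 12.2 in MacB2-2wk and 17.3, 12.8 and 22.8 in MacB2-3wk, and at 16.7, 16.8 and 19.6 in MacB1-N. The tumour and naive ranges overlapped, and the high MacB2-N value is that of the replicate with the high endothelial markers. The ratio of Col4a1 to Col4a2 stayed between 0.83 and 1.43 over the 24 libraries (median 1.13), while Col4a1 itself ran from 1.99 to 22.8 FPKM. The ratio of Col1a1 to Col1a2, the chains of 1 protein from separate chromosomes, ran from 0.60 to 15.0 (median 1.70). The 15.0 was from 1 library, MacB3-3wk replicate 2, and the next highest ratio was 4.02 (MacB2-3wk replicate 2). Col6a1 and Col6a2, both on chromosome 10, stood at a ratio of 1.01 to 5.51 (median 2.85). What sets these spreads was not tested.

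Decorin and lumican are small proteoglycans of collagen fibrils. Dcn (ENSMUSG00000019929, chromosome 10, 97479609 to 97518143, GRCm38) was at 9.97, 6.81 and 9.95 FPKM in MacB2-N cells, 35.99, 23.1 and 52.2 in MacB2-2wk and 174, 339 and 197 in MacB2-3wk. It was at 71.7, 142 and 70.01 FPKM in MacB3-3wk and 14.6, 4.18 and 9.27 in MacB3-2wk, at 6.95, 7.75 and 81.5 in MacA-2wk and 1.76, 4.05 and 4.90 in MacA-N, and at 17.7, 14.6 and 10.1 in MacB1-N. The 3 MacB2 groups were separate. MacA-2wk replicates 1 and 2 lay above all MacA-N libraries, although by far less than replicate 3 did. Lum was at 0, 0.691 and 0.520 FPKM in MacB2-N cells, 11.5, 5.74 and 19.8 in MacB2-2wk and 46.5, 87.9 and 32.7 in MacB2-3wk, and it was listed at 0 in 6 of the 9 naive libraries, among them the 3 of MacA-N. Prg4, the lubricating proteoglycan of joint and serosal surfaces, was at 6.94, 7.12 and 17.7 FPKM in MacB2-N cells, 32.7, 121 and 34.2 in MacB2-2wk and 75, 164 and 73.6 in MacB2-3wk. Its second replicates at 2 and 3 weeks, and that of MacB3-3wk (31.6, 144 and 30.9 FPKM), were more than the other 2 of their groups together, and these 3 libraries share lane 3. The lane 3 libraries of MacB2-N and MacB3-2wk were not the highest of their groups.

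Biglycan departed from this pattern. Bgn (ENSMUSG00000031375, chromosome X, 73483602 to 73495933, GRCm38), a proteoglycan of the decorin family, was at 53.5, 46.8 and 149 FPKM in MacB2-N cells, 58.2, 154 and 69.3 in MacB2-2wk and 95.9, 53.3 and 102 in MacB2-3wk, and its level was highest in naive MacB1-N at 187, 137 and 205. MacB1-N lay above every MacB2-3wk library. The ratio of Bgn to Dcn averaged 0.41 ± 0.22 in MacB2-3wk and 0.41 ± 0.15 in MacB3-3wk, 3.20 ± 2.99 in MacB2-2wk, 3.29 ± 2.44 in MacB3-2wk and 1.84 ± 0.63 in MacA-2wk, against 9.05 ± 5.14 in MacB2-N, 13.5 ± 6.01 in MacB1-N and 9.18 ± 1.76 in MacA-N. Fbn1, the backbone of microfibrils, was at 29.7 ± 9.90 FPKM in MacB2-3wk and 2.76 ± 1.95 in MacB2-N. Fbln2 and Mfap5, further proteins of microfibrils and elastic fibres, ran from 1.25 to 3.68 and 1.07 to 7.52 FPKM in MacB2-3wk and from 0 to 4.02 and 0 to 1.78 FPKM in MacB2-N, so both overlapped.

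Among the matricellular and secreted proteins, Ptn (ENSMUSG00000029838, chromosome 6, 36714929 to 36810220, GRCm38) encodes pleiotrophin, a heparin-binding growth factor, and was listed at 0 in 8 of the 9 naive libraries and at 0.612 FPKM in the ninth, MacB2-N replicate 3. Ptn was at 11.8, 12.5 and 14.9 FPKM in MacB2-2wk and 123, 161 and 168 in MacB2-3wk, at 53.7, 84.4 and 72.1 in MacB3-3wk and 9.34, 3.59 and 5.91 in MacB3-2wk, and at 2.88, 4.09 and 21.2 in MacA-2wk. Every tumour library was above every naive library, and its log2 change was 7.00 (SE 0.44) for MacB2-3wk against MacB2-N, the highest of the 40.

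Tnc, the matricellular protein tenascin C, and Thbs2, an antiangiogenic thrombospondin, followed Ptn at lower levels. Tnc was at 0.0627, 0.118 and 0.256 FPKM in MacB2-N cells, 2.09, 2.02 and 6.55 in MacB2-2wk and 17.6, 28.1 and 13.4 in MacB2-3wk. Thbs2 was at 0, 0 and 0.0983 FPKM in MacB2-N cells, 3.88, 2.19 and 5.60 in MacB2-2wk and 16.98, 26.2 and 25.2 in MacB2-3wk, and was listed at 0 in 5 naive libraries. For both genes the 3 MacB2 groups did not overlap. Serpinf1, which encodes the secreted protein PEDF, was at 5.48, 1.68 and 2.41 FPKM in MacB2-N cells, 25.2, 19.96 and 45.5 in MacB2-2wk and 151, 128 and 94.9 in MacB2-3wk. It was also among the most abundant members in MacB3 cells, at 81.4, 73.6 and 59.1 FPKM in MacB3-3wk and 22, 22.8 and 38.7 in MacB3-2wk. Fstl1, a secreted glycoprotein, was at 25.2 ± 8.98 FPKM in MacB2-3wk and 1.45 ± 1.62 in MacB2-N.

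Sparc and periostin (Postn), both matricellular, were above 0 in every naive library. Sparc, which binds collagen, was at 20.7, 11.9 and 69.7 FPKM in MacB2-N cells, 31.6, 63 and 52.2 in MacB2-2wk and 74.1, 73.6 and 77.1 in MacB2-3wk, and at 63.2, 52.7 and 93.7 in MacB1-N. MacB2-3wk and MacB1-N overlapped. Postn (ENSMUSG00000027750, chromosome 3, 54361109 to 54391037, GRCm38) was at 2.81, 4.16 and 18.4 FPKM in MacB2-N cells, 3.15, 13.6 and 9.91 in MacB2-2wk and 0.762, 1.19 and 1.50 in MacB2-3wk, and at 6.81, 15.7 and 15.99 in MacB1-N. It was the only member called lower in MacB2-3wk than in MacB2-N, with a log2 change of -1.77 (SE 0.59). Without MacB2-N replicate 3 the log2 change was -1.06 and Postn was not called, and it was not called either without any 1 of the MacB2-3wk libraries, with no filter, after rescaling to the protein-coding sum or with only these 2 groups fitted. Set against Col3a1 in the same library, Postn stood at a ratio of at most 0.00606 in MacB2-3wk and 0.0179 in MacB3-3wk, against 0.39 to 1.87 in the 9 naive libraries.

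**Figure D2:**
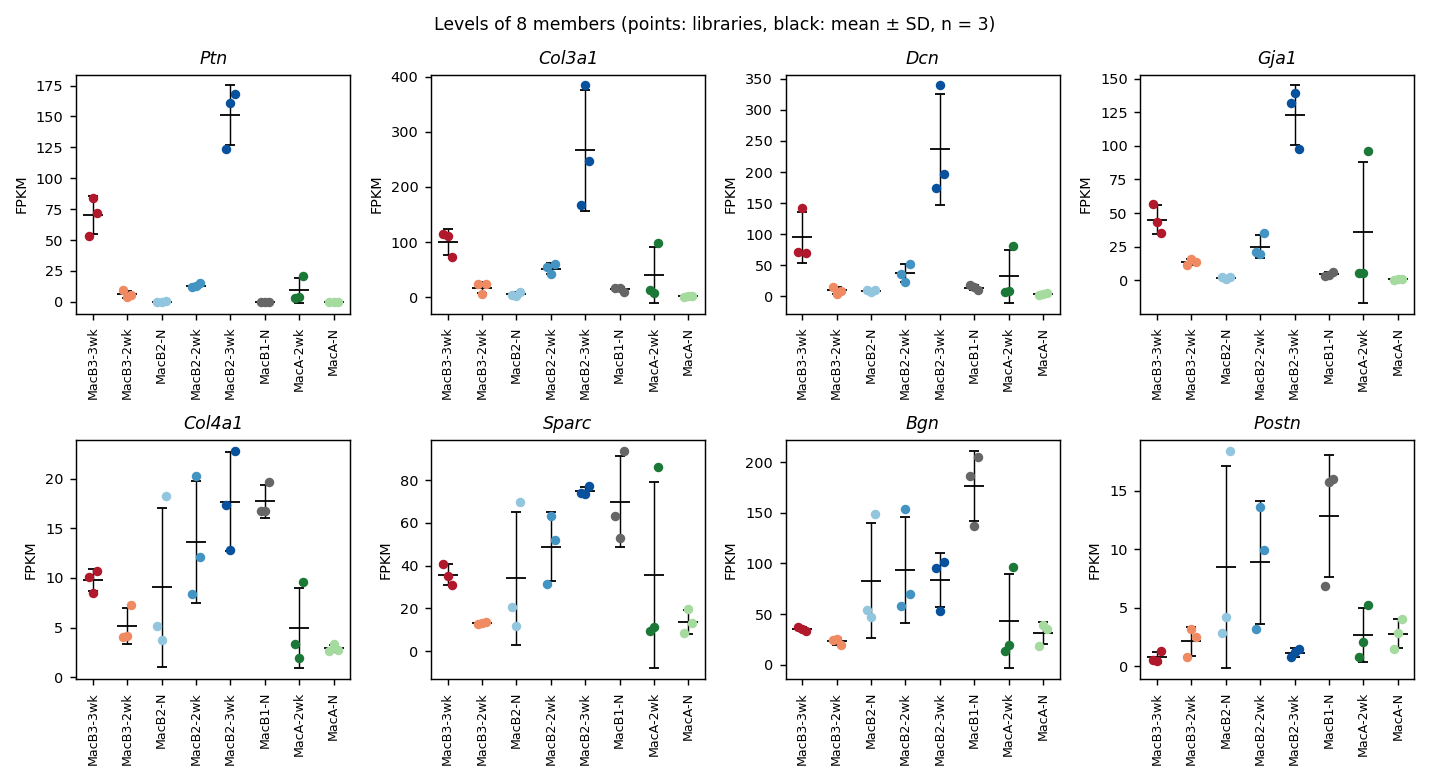
FPKM of 8 members by group, with 1 point per library and the mean ± SD in black (n = 3). Ptn, Col3a1, Dcn and Gja1 are low in naive groups and highest in MacB2-3wk, whereas Col4a1 and Sparc overlap between MacB2-3wk and MacB1-N, and Bgn and Postn are higher in MacB1-N.

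Of the enzymes that process collagen, Bmp1, the procollagen C-proteinase, was at 0.0480, 0.0454 and 3.55 FPKM in MacB2-N cells, 6.57, 4.44 and 6.23 in MacB2-2wk and 38.3, 25.4 and 42.9 in MacB2-3wk, and at 22.8, 25.7 and 20.7 in MacB3-3wk and 1.59, 4.14 and 3.28 in MacB3-2wk. The crosslinking enzymes did not follow it. Lox was at 4.11, 1.41 and 5.15 FPKM in MacB2-N cells, 2.70, 6.97 and 8.38 in MacB2-2wk and 5.60, 3.34 and 9.39 in MacB2-3wk, and at 9.69, 9.03 and 14.2 in MacB1-N. Loxl1 was at 3.19, 1.92 and 5.89 FPKM in MacB2-N cells, 2.83, 7.94 and 3.98 in MacB2-2wk and 2.63, 1.85 and 3.21 in MacB2-3wk, and at 10.1, 6.53 and 7.08 in MacB1-N. Both overlapped between MacB2-3wk and MacB2-N, and Loxl1 was higher in each MacB1-N library than in any MacB2-3wk library.

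The mesenchymal transcription factors were low in the sorted cells of the naive groups. Prrx1, a homeobox factor of limb and craniofacial mesenchyme, was at 0.634, 0.509 and 0.825 FPKM in MacB2-N cells, 13.4, 11.6 and 18.97 in MacB2-2wk and 82.8, 79.2 and 64.7 in MacB2-3wk. Sox9, a regulator of cartilage and of progenitor cells in several epithelia, was at 0, 0.0410 and 0.247 FPKM in MacB2-N cells, 12.3, 12.5 and 15.4 in MacB2-2wk and 88.5, 54.02 and 70.02 in MacB2-3wk, and Twist2, a basic helix-loop-helix factor, was at 0.457, 0 and 0 FPKM in MacB2-N cells, 1.18, 1.47 and 1.88 in MacB2-2wk and 13.05, 11.8 and 13.9 in MacB2-3wk. The MacB2 groups did not overlap for Prrx1, Sox9 and Twist2. The receptors for platelet-derived growth factor differed from the factors, since Pdgfrb, a receptor of pericytes and fibroblasts, was at 2.75, 1.43 and 5.55 FPKM in MacB2-N cells, 3.10, 6.90 and 3.32 in MacB2-2wk and 1.93, 1.41 and 2.91 in MacB2-3wk, and at 7.74, 6.88 and 7.79 in MacB1-N. Pdgfra, a receptor of lung fibroblasts, was at 7.78, 7.98 and 9.15 FPKM in MacB2-3wk and at 5.99, 7.26 and 9.73 in MacB1-N, with overlapping ranges.

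In the contractile and junction group, Gja1, the gap junction protein connexin 43, was at 2.64, 0.736 and 2.76 FPKM in MacB2-N cells, 21, 19.3 and 34.8 in MacB2-2wk and 132, 139 and 97.7 in MacB2-3wk. Flnc, an actin-crosslinking filamin best known from muscle, was at 0.724, 0.0553 and 0.385 FPKM in MacB2-N cells, 6.99, 11.5 and 26.2 in MacB2-2wk and 84.6, 72.6 and 78.5 in MacB2-3wk. Tpm2, a tropomyosin, was at 2.06, 1.17 and 1.22 FPKM in MacB2-N cells, 5.41, 5.04 and 3.25 in MacB2-2wk and 48.8, 35.03 and 25.6 in MacB2-3wk. The MacB2 groups were separate for all of these genes. Acta2, the smooth muscle actin used as a marker of myofibroblasts, was at 7.57, 6.05 and 4.17 FPKM in MacB2-3wk and 5.31, 6.05 and 2.70 in MacB2-N, which overlapped, unlike Gja1, Flnc and Tpm2.

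The long noncoding RNA H19, an imprinted transcript of fetal tissue, was at 0.235, 0 and 0.117 FPKM in MacB2-N cells, 4.21, 3.19 and 14.4 in MacB2-2wk and 32.7, 50.04 and 30.4 in MacB2-3wk. It was at 1.18, 0.0738 and 40.8 FPKM in MacA-2wk, where replicate 3 was in the range of MacB2-3wk and replicate 2 in the range of the naive libraries. Dnm3os, the antisense transcript that carries the miR-199a and miR-214 hairpins, was at 0.199, 0 and 0.0628 FPKM in MacB2-N cells, 2.78, 0.125 and 0.670 in MacB2-2wk and 5.90, 9.25 and 47.6 in MacB2-3wk, so its mean there rests mostly on replicate 3. The sources used here do not say whether counting used strand, so reads of Dnm3os and of its partner Dnm3 cannot be told apart.

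Counted over the 40 genes, 27 were called higher and 1 lower in MacB2-3wk against MacB2-N, where 9.67% of all genes tested were called higher and 5.04% lower, and the median log2 change was 3.50, against 0 over all genes. At an unadjusted p under 0.05, 31 were higher and 1 lower, against 18.5% and 14.1% of all genes, and the groups did not overlap for 28 genes above and 1 below, against 18.6% and 15.2%. By role the calls were 5 of 5 fibrillar collagens, 4 of 7 other collagens, 4 of 7 proteoglycans and microfibril proteins, 5 of 7 matricellular proteins, 1 of 3 processing enzymes, 3 of 5 receptors and factors, 3 of 4 cytoskeletal or junction proteins and 2 of 2 noncoding RNAs. In MacB2-2wk against MacB2-N, 9 were called higher (Col3a1, Lum, Thbs2, Serpinf1, Ptn, Prrx1, Sox9, Flnc and Gja1) and 0 lower by limma, against 1.66% and 0.227% of all genes, with a median of 1.35. At an unadjusted p under 0.05 the counts at 2 weeks were 26 higher and 0 lower, against 9.79% and 5.06% of all genes, and 26 lay above and 0 below with no overlap, against 9.84% and 6.7%. Since the genes were chosen with these contrasts known, nothing about them is read from the counts. Without MacA-2wk replicate 3 and MacB2-N replicate 3, 23 were called higher at 2 weeks and the median was 1.67, a check that was added after the data were seen, and under it 454 of all genes were called higher, against 284 in all libraries. The 9 called higher at 2 weeks in all libraries became 2 without MacB2-2wk replicate 3 and 5 without MacB2-N replicate 2. Within lanes, the median log2 difference of the 40 genes between MacB2-3wk and MacB2-N was 3.26, 3.91 and 2.28 in lanes 2, 3 and 7. Over all genes the calls were 1659 higher and 865 lower in MacB2-3wk against MacB2-N, 1836 and 563 after rescaling to the protein-coding sum, and 1374 and 1234 with quantile normalization. In MacB2-2wk against MacB2-N they were 284 higher and 39 lower, and 209 and 71 with quantile normalization.

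Markers of other lung cells did not share 1 direction with the list in MacB2-3wk. Of 12 endothelial markers, 0 were called higher and 4 (Cdh5, Tek, Cldn5 and Ptprb, named after their values were seen) lower in MacB2-3wk than in MacB2-N, and their summed level was 154 to 552 FPKM in MacB2-N cells, 197 to 618 in MacB2-2wk and 70.6 to 98.1 in MacB2-3wk. Of 13 lung epithelial markers, 3 (Sftpc, Sftpa1 and Scgb1a1) were called lower and 2 (Krt8 and Krt18) higher, again named after their values were seen. The other 8, among them Sftpb and Sftpd, were not called, and the median log2 change of the list was -0.86. Krt18 averaged 39.8 ± 2.56 FPKM in MacB2-3wk and 1.64 ± 0.541 in MacB2-N (log2 change 3.97 (SE 0.60), limma adjusted p = 0.000104), while Epcam stayed at 0.245 ± 0.174 FPKM in MacB2-3wk and 0.481 ± 0.486 in MacB2-N. Of 15 macrophage and monocyte markers, Ptprc, Csf1r, Lyz2, Ly6c2 and Cx3cr1 were called lower and Marco higher in MacB2-3wk, and all 15 were detected. Ptprc averaged 100.1 ± 38.2 FPKM in MacB2-3wk and 265 ± 5.97 in MacB2-N (adjusted p = 0.00132). Of 7 neutrophil markers tested, 2 were called higher and 1 lower, with a median log2 change of 0.55. Their summed level over all 8 of the list was 495 to 1270 FPKM in MacB2-3wk and 231 to 271 in MacB2-N. Of 10 T, NK and B cell markers tested, 1 was called lower and 0 higher, and of 3 mesothelial markers tested, 1 lower and 0 higher. None of the 12 endothelial or 13 epithelial markers was at 0 in all libraries of either group. The marker calls of this comparison are given with all libraries only. MacB2-N replicate 3 had the highest endothelial and epithelial means of its group. The part of these other cells in the levels of the 40 genes was not tested.

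Genes of the same biology outside the 40 were also counted, from 8 lists of other matrix and mesenchymal genes that held 175 genes, 134 of them tested. In MacB2-3wk against MacB2-N, 50 of the 134 (37.3%) were called higher and 6 (4.48%) lower, against 9.67% and 5.04% of all genes, with a median log2 change of 0.42, against 0 over all genes. The highest counts were in the enzymes of collagen synthesis (11 of 20) and other fibroblast genes (11 of 25, with 5 lower). Among the collagen enzymes, Crtap, which takes part in prolyl 3-hydroxylation, averaged 22.2 ± 4.57 FPKM in MacB2-3wk and 3.32 ± 0.459 in MacB2-N (log2 change 2.41 (SE 0.25), limma adjusted p = 1.44e-06), and P4ha1, a prolyl 4-hydroxylase subunit, 40.03 ± 1.64 FPKM in MacB2-3wk and 16.2 ± 1.00 in MacB2-N (log2 change 1.26 (SE 0.16), adjusted p = 1.41e-05). The basement membrane list was split, with Lamb1, Lamc1, Hspg2 and Nid1 higher and Npnt lower, and the laminin chain gene Lamb1 averaged 315 ± 61.2 FPKM in MacB2-3wk and 9.97 ± 1.91 in MacB2-N (log2 change 4.84 (SE 0.60), adjusted p = 1.37e-05).

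The fibroblast list moved in both directions, with 11 of 25 genes called higher, 5 lower and 9 not called, and a median log2 change of 0.39. Twist1, a mesenchymal transcription factor, averaged 32.5 ± 7.56 FPKM in MacB2-3wk and 0.0287 ± 0.0497 in MacB2-N (log2 change 5.00 (SE 0.54), limma adjusted p = 2.96e-06). Among the 5 called lower were the transcription factors Tcf21 and Foxf1 and the enzyme Inmt. Tcf21 was at 1.24 ± 0.916 FPKM in MacB2-3wk and 6.38 ± 3.44 in MacB2-N (log2 change -1.66 (SE 0.53), limma adjusted p = 0.0324). These 3 genes were named after their values were seen, and nothing about a kind of fibroblast is read from them. The calls of Tcf21, Foxf1 and Inmt are given with all libraries only. The mean log2(FPKM + 1) over the fibroblast list was 2.31 in MacB2-N replicate 3, against 1.76 and 1.39 in replicates 1 and 2. Of 13 imprinted or oncofetal genes, 6 were called higher and 0 lower. Hmga2, a chromatin protein of fetal tissues and tumours, averaged 57.2 ± 12.95 FPKM in MacB2-3wk and 0.104 ± 0.180 in MacB2-N (adjusted p = 4.7e-07). Igf2bp2, an RNA-binding protein of fetal tissue, averaged 28.7 ± 3.99 FPKM in MacB2-3wk and 0.187 ± 0.0861 in MacB2-N (limma adjusted p = 1.09e-07). Igf2bp2 was not absent from the other naive groups, since it averaged 11.2 ± 1.72 FPKM in MacA-N and 2.36 ± 0.860 in MacB1-N. It was called lower in MacB2-N than in MacA-N. Peg10, an imprinted gene of placenta, averaged 41.6 ± 5.86 FPKM in MacB2-3wk and 0.321 ± 0.0860 in MacB2-N (limma adjusted p = 7.5e-06). Hmga2, Igf2bp2 and Peg10 were also among the 12 of 134 called higher (8.96%, against 1.66% of all genes) in MacB2-2wk against MacB2-N, where 0 were lower by limma. The 12 became 5 without MacB2-2wk replicate 3.

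**Figure D3:**
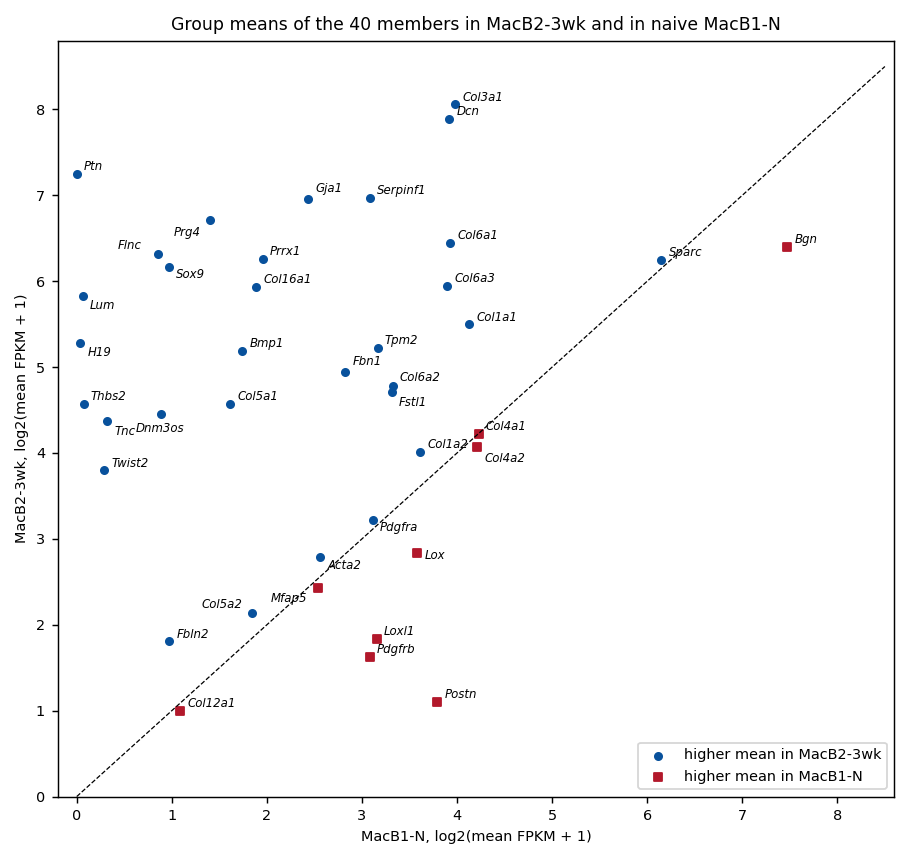
Group mean of each of the 40 genes in MacB2-3wk (vertical) against naive MacB1-N (horizontal), both as log2(mean FPKM + 1), with the line of equal levels dashed. 31 genes lie above the line and 9 below it, with Ptn, Lum, H19, Thbs2, Tnc and Twist2 near 0 in MacB1-N and Postn, Pdgfrb, Loxl1 and Bgn farthest below the line.

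Naive MacB1-N cells carried many of the same transcripts without a tumour. Against MacA-N, 21 of the 40 were called higher and 0 lower by limma, where 15% of all genes were called higher and 8.71% lower, with a median log2 change of 1.66. At an unadjusted p under 0.05 the counts were 27 higher and 0 lower, against 25.2% and 17.4% of all genes, and 26 lay above and 0 below with no overlap, against 27.3% and 19.4%. The 21 held the 5 fibrillar collagens, Bgn, Sparc, Postn, Lox, Loxl1 and both receptors. The 19 not called included Ptn, Tnc, Thbs2, Lum, Twist2, Sox9, Flnc, H19 and Dnm3os, the 9 genes under 1 FPKM on average in every naive group. With both means under 1 FPKM, a change in log2(FPKM + 1) cannot reach a fold of 2. These 9 could therefore not be called, and nothing is read from their absence. Of the 12 endothelial markers, 11 were called higher in MacB1-N than in MacA-N, with a summed level of 517 to 680 FPKM in MacB1-N and 108 to 159 in MacA-N, and all 3 mesothelial markers tested were higher too. Of 13 lung epithelial markers, 5 were called higher and 2 lower, with a summed level of 3708 to 13050.3 FPKM in MacB1-N and 721 to 5413 in MacA-N. Of 10 T, NK and B cell markers tested, 6 were called higher and 1 lower, with a summed level over all 12 of the list of 62.9 to 106 FPKM in MacB1-N and 418 to 469 in MacA-N. Of 15 macrophage and monocyte markers 5 were called higher and 7 lower, with a summed level of 3948 to 4782 FPKM in MacB1-N and 9957 to 12965 in MacA-N. Of 7 neutrophil markers tested, 2 were called higher and 1 lower. Their part in the MacB1-N levels of the list was not tested. In MacB2-N against MacA-N, only Prg4 was called higher and 0 lower, against 10.7% and 10.2% of all genes, with a median of 0.52, and 8 were higher and 0 lower at an unadjusted p under 0.05, against 19.2% and 18.9%. The count of 1 was 5 without MacB2-N replicate 2 and 2 without MacA-N replicate 3. In that comparison 11 lay above and 0 below with no overlap, against 20% and 19.5% of all genes. Over all genes the calls were 2572 higher and 1495 lower in MacB1-N against MacA-N, and 1930 and 2161 with quantile normalization. In MacB2-N against MacA-N they were 1838 higher and 1745 lower, and 1413 and 2246 after rescaling to the protein-coding sum. Both comparisons share the MacA-N libraries, and lane and population cannot be told apart in them.

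In MacB1-N against MacA-N, 62 of the 134 other matrix genes (46.3%) were called higher and 8 (5.97%) lower, against 15% and 8.71% of all genes. In MacB2-N against MacA-N 15 (11.2%) were higher and 6 (4.48%) lower, against 10.7% and 10.2% of all genes, so the share higher was near that of all genes. Thbs1, the thrombospondin of platelets and monocytes, averaged 1119 ± 596 FPKM in MacB2-N and 9.57 ± 6.89 in MacA-N (log2 change 6.82 (SE 0.55), limma adjusted p = 1.2e-08), and Fn1, fibronectin, 936 ± 346 FPKM in MacB2-N and 284 ± 44.9 in MacA-N (adjusted p = 0.00124). Matn2, a matrilin, was lower in MacB2-N, at 0.214 ± 0.110 FPKM, against 21.01 ± 0.964 in MacA-N (log2 change -4.18 (SE 0.28), adjusted p = 1.26e-09).

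In SiglecF+ MacA cells the 2-week tumour difference was largest in 1 library. Of the 40 genes, 5 were called higher (Col3a1, Serpinf1, Ptn, Flnc and Gja1) and 0 lower in MacA-2wk against MacA-N, where 0.729% of all genes were called higher and 0.0583% lower, with a median log2 change of 1.14, and 20 were higher and 0 lower at an unadjusted p under 0.05, against 7.64% and 3.16%. The groups did not overlap for 15 genes above and 0 below, against 9.62% and 4.98% of all genes. Without replicate 3 the median was 0.46, 27 of the 40 changes were positive and 3 genes were called (Serpinf1, Ptn and Gja1). The count was also 3 without MacA-N replicate 3, 1 without either of the other MacA-N libraries, 8 without MacA-2wk replicate 1 and 10 without MacA-2wk replicate 2. By definition, the 15 genes without overlap lay above all MacA-N libraries in each MacA-2wk replicate. Ptn, for example, was at 2.88, 4.09 and 21.2 FPKM in MacA-2wk and listed at 0 in all MacA-N libraries, and Flnc at 4.29, 2.44 and 21.8 in MacA-2wk and 0.0228, 0 and 0.0652 in MacA-N. Sox9 was at 0.0624, 0.680 and 32.3 FPKM in MacA-2wk and 0.0508, 0.610 and 0.291 in MacA-N, so its higher mean came from replicate 3. Of the other matrix genes, 5 of 134 (3.73%, against 0.729% of all genes) were called higher and 0 lower (Lamb1, Snai1, Pdpn, Tpm1 and Hmga2), and 2 without replicate 3. Pdpn, the membrane protein podoplanin, averaged 74.7 ± 27.6 FPKM in MacA-2wk and 14.4 ± 2.77 in MacA-N (log2 change 2.25 (SE 0.48), limma adjusted p = 0.0248).

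**Figure D4:**
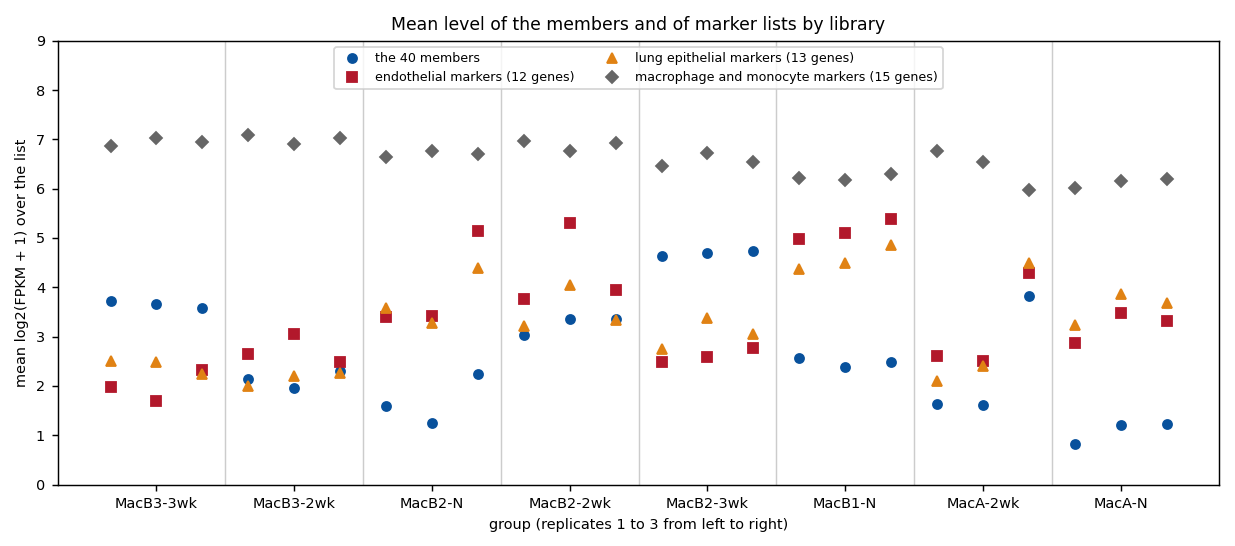
Mean log2(FPKM + 1) over the 40 genes and over 3 marker lists, by library. The list is high in MacB3-3wk and highest in MacB2-3wk, where the endothelial means lie below those of MacB2-N, and the third libraries of MacB2-N and MacA-2wk have the highest endothelial and epithelial means of their groups.

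MacB3 cells, the CD64hi population found in tumour lungs, carried less of the list than MacB2 cells of the same week. At 3 weeks, the MacB3-3wk mean was below the MacB2-3wk mean for 39 of the 40 genes, with a median ratio of 0.44 and the middle 50% of the ratios between 0.38 and 0.51. At 2 weeks the MacB3-2wk mean was below the MacB2-2wk mean for 37 genes, with a median ratio of 0.36 and a middle 50% between 0.27 and 0.48. In MacB3-3wk against MacB2-3wk the groups did not overlap for 0 genes above and 31 below, against 9.85% and 14.2% of all genes tested, and in MacB3-2wk against MacB2-2wk for 0 above and 27 below, against 11.4% and 16.7%. Within lanes 2, 3 and 7, the median log2 difference of the 40 genes was -0.95, -0.94 and -1.25 for MacB3-3wk against MacB2-3wk. For MacB3-2wk against MacB2-2wk it was -0.98, -1.50 and -1.15.

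In the fit to all 24 libraries, few of these differences were called in single genes. In MacB3-3wk against MacB2-3wk, 0 were called higher and 0 lower by limma, against 1.61% and 1.03% of all genes, with a median log2 change of -1.08. At an unadjusted p under 0.05, 0 were higher and 17 lower, against 6.63% and 8.85% of all genes. A fit to these 2 groups alone called 11 lower, and the fit without the 2 libraries that stood apart called 13. Lower calls over all genes were 253 and 344 in these fits, against 176 in the fit to all libraries. Neither of the 2 libraries left out is in the groups compared. The median log2 change stayed at -1.08 without them, while the spread shared by all groups changed. In MacB3-2wk against MacB2-2wk, 0 were called higher and 5 lower (Col1a1, Bgn, Prg4, Fbn1 and Pdgfra), against 3.15% and 4.21% of all genes, with a median of -1.11, and 0 higher and 25 lower at an unadjusted p under 0.05, against 9.76% and 14.8%. The count of 5 lower was 2 with no filter, after rescaling or with quantile normalization, and 8 with lane as a replicate block. It was 20 without the 2 libraries that stood apart, where lower calls over all genes were 1051, against 722. Those libraries are in neither group here too, and the median stayed at -1.11. Without MacB2-2wk replicate 2, the library with the high endothelial markers, the count was 1 and the median was -0.99. The log2 change of Bgn was -1.43 without that library, against -1.85 in all libraries, and Bgn was also not called with no filter, after rescaling, with quantile normalization or without any 1 of the other libraries but MacB2-2wk replicate 1. The count was 3 without MacB2-2wk replicate 1 and 1 or 2 without any 1 of the other 4 libraries. Over all genes the calls were 541 higher and 722 lower, and 676 and 527 with quantile normalization. The number of calls moved with these settings, while the log2 change was negative for 39 genes at 3 weeks and 37 at 2 weeks.

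**Figure D5:**
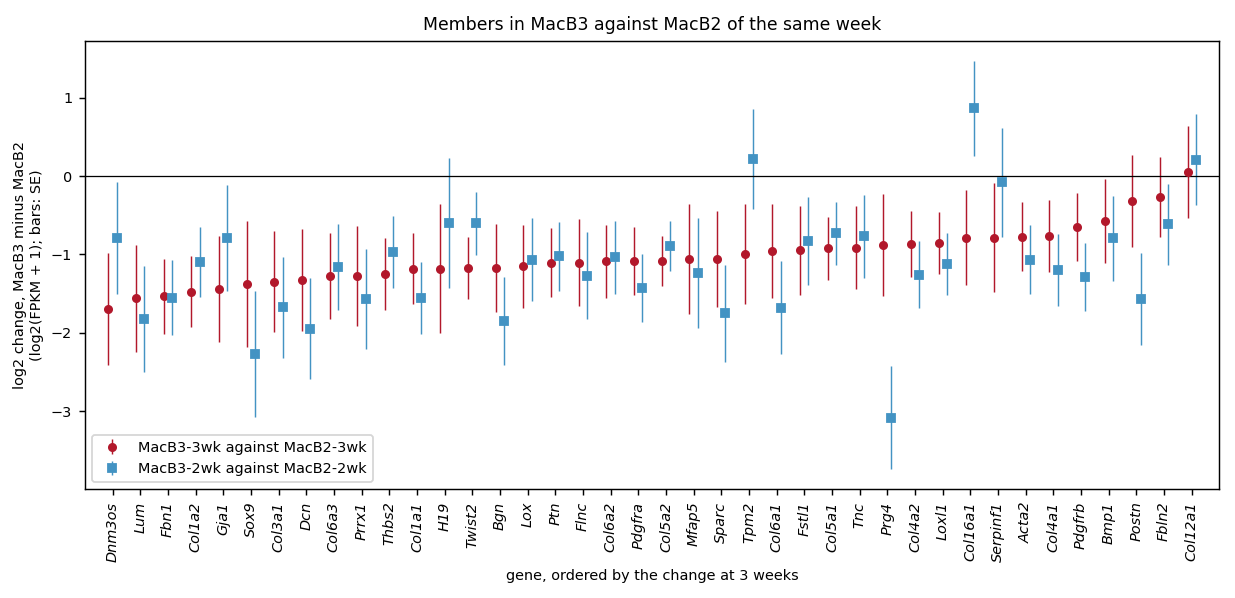
Log2 change (FPKM + 1) of each of the 40 genes in MacB3 against MacB2 at 3 weeks (red circles) and at 2 weeks (blue squares), with bars of 1 SE. 39 of the points at 3 weeks and 37 at 2 weeks are below 0, and most lie near -1.

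Single members show the size of the difference at 3 weeks. Ptn was at 53.7, 84.4 and 72.1 FPKM in MacB3-3wk and 123, 161 and 168 in MacB2-3wk. Col6a1 was at 48.6, 46.2 and 37.5 FPKM in MacB3-3wk and 91.3, 82.1 and 85.1 in MacB2-3wk. Both genes were lower in every MacB3-3wk library than in any MacB2-3wk library, with ratios of means of 0.464 for Ptn and 0.511 for Col6a1. Prrx1 was at 36.4, 29.98 and 25.5 FPKM in MacB3-3wk and 82.8, 79.2 and 64.7 in MacB2-3wk. Sox9 was at 33.9, 29.5 and 17.7 FPKM in MacB3-3wk and 88.5, 54.02 and 70.02 in MacB2-3wk. Gja1 was at 56.5, 43.6 and 35.1 FPKM in MacB3-3wk and 132, 139 and 97.7 in MacB2-3wk. Flnc was at 39.4, 34.5 and 34.2 FPKM in MacB3-3wk and 84.6, 72.6 and 78.5 in MacB2-3wk. For these 4 genes too, every MacB3-3wk library was below every MacB2-3wk library. At 2 weeks the ratios were more spread, from 0.087 (Prg4, at 8.02, 3.92 and 4.39 FPKM in MacB3-2wk and 32.7, 121 and 34.2 in MacB2-2wk) to 1.82 (Col12a1).

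Of the 134 other matrix genes, 3 (2.24%) were called higher and 2 (1.49%) lower in MacB3-3wk against MacB2-3wk, near the 1.61% and 1.03% of all genes. In MacB3-2wk against MacB2-2wk 5 (3.73%) were higher and 15 (11.2%) lower, against 3.15% and 4.21% of all genes. The 15 became 2 without MacB2-2wk replicate 2 or MacB3-2wk replicate 3, 6 without MacB3-2wk replicate 1 and 7 without MacB3-2wk replicate 2. Ecm1, a secreted matrix protein, averaged 2518 ± 498 FPKM in MacB3-3wk and 922 ± 357 in MacB2-3wk (log2 change 1.52 (SE 0.32), limma adjusted p = 0.00969), and 2328 ± 775 FPKM in MacB3-2wk and 448 ± 20.2 in MacB2-2wk (log2 change 2.31 (SE 0.32), adjusted p = 0.000113). Col14a1, a fibril-associated collagen, averaged 12.8 ± 4.45 FPKM in MacB3-3wk and 1.44 ± 0.292 in MacB2-3wk (log2 change 2.46 (SE 0.25), adjusted p = 6.12e-06), and it was called higher at 2 weeks too. Gas6, a ligand of the receptors that take up dying cells, was higher at 3 weeks (21.9 ± 2.78 FPKM in MacB3-3wk and 3.10 ± 1.09 in MacB2-3wk, adjusted p = 1.19e-05) and at 2 weeks (adjusted p = 0.000198). Pi16, a gene of adventitial fibroblasts, and Vcan, the proteoglycan versican, were lower at both times. Vcan averaged 30.5 ± 8.01 FPKM in MacB3-3wk and 122 ± 4.19 in MacB2-3wk (log2 change -1.99 (SE 0.51), adjusted p = 0.0317). Endothelial markers moved with the list at 2 weeks, with 6 of 12 called lower in MacB3-2wk than in MacB2-2wk and a summed level of 74.0 to 122 FPKM in MacB3-2wk and 197 to 618 in MacB2-2wk. Of 13 lung epithelial markers 2 were called lower and 0 higher, with a summed level of 169 to 597 FPKM in MacB3-2wk and 494 to 2488 in MacB2-2wk. Of 7 neutrophil markers tested 1 was called lower and 0 higher, with a summed level over all 8 of the list of 142 to 372 FPKM in MacB3-2wk and 529 to 808 in MacB2-2wk, and Camp and Ngp were at 0 in all MacB3-2wk libraries. Of 10 T, NK and B cell markers tested 2 were called lower and 0 higher, with a summed level over all 12 of the list of 13.4 to 22.99 FPKM in MacB3-2wk and 35.1 to 50.7 in MacB2-2wk. The median log2 changes of these 4 lists were -1.78, -1.48, -1.33 and -0.89 at 2 weeks. At 3 weeks 0 of 12 endothelial markers were called in either direction, with a summed level of 44.0 to 59.3 FPKM in MacB3-3wk and 70.6 to 98.1 in MacB2-3wk. Calls were also 0 in the other 3 of these lists and in the 40 genes. The median log2 changes of the 4 marker lists, in the same order, were -0.78, -0.65, -0.71 and -0.62 at 3 weeks, against -0.04 over all genes. These 4 lists had the direction of the 40 genes at 3 weeks too. The list of 15 macrophage and monocyte markers did not, with 5 called higher and 2 lower and a median of 0.22. At 2 weeks that list had 3 called higher and 3 lower and a median of 0.10. Of 3 mesothelial markers tested, 1 was called lower and 0 higher at each time. The part of these markers' cells in the difference was not tested.

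The levels were higher at 3 than at 2 weeks in MacB3 as well as in MacB2. In MacB3-3wk against MacB3-2wk, 7 of the 40 were called higher (Col5a1, Dcn, Prg4, Ptn, Bmp1, Twist2 and Flnc) and 0 lower by limma, against 0.28% and 0.035% of all genes, with a median log2 change of 1.79, and 27 were higher and 0 lower at an unadjusted p under 0.05, against 5.73% and 2.87%. The groups did not overlap for 31 genes above and 0 below, against 9.98% and 6.46% of all genes. The 7 became 1 with a pseudocount of 0.1, no filter, rescaling or quantile normalization, and 1 to 3 without any 1 of the 6 libraries. Without the 2 libraries that stood apart the count was 22, where 229 of all genes were called higher, against 48. Those libraries are in neither MacB3 group, and the median stayed at 1.79. Over all genes the calls were 48 higher and 6 lower, and 21 and 6 with quantile normalization. The median ratio of 3-week to 2-week means was 3.96 in MacB3 and 4.09 in MacB2, and 5 genes had a ratio under 1 in each population. Of the other matrix genes, Col18a1, Aspn and Islr were called higher in MacB3-3wk and 0 lower, and 6 were called higher with lane as a replicate block. Col18a1, the collagen that endostatin is cut from, averaged 19.97 ± 3.44 FPKM in MacB3-3wk and 3.06 ± 1.50 in MacB3-2wk (log2 change 2.42 (SE 0.36), limma adjusted p = 0.00509).

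The 40 genes did not all follow 1 course over the 24 libraries. Against the mean log2(FPKM + 1) of the other 39, Pearson's r was 0.97 for Col3a1, 0.96 for Col6a1, Fbn1, Dcn and Col5a1 (0.957 for the last), 0.38 for Bgn, 0.19 for Loxl1, 0.17 for Pdgfrb and -0.20 for Postn. These values describe libraries that share their group means, lanes and other RNA, and they carry no p. Among 6304 genes outside the list whose highest group mean reached 20 FPKM, the 10 most like the mean of the 40 were Nid1, Ntn1, Pcolce, Prkcdbp, Angptl2, Serpinh1, Lamb1, Igfbp4, Col18a1 and Nptx1, with r of 0.98 (Nid1, Ntn1 and Pcolce) down to 0.96 (Nptx1). Nid1 and Lamb1 encode basement membrane proteins, Pcolce an enhancer of the C-proteinase and Serpinh1 the collagen chaperone of the endoplasmic reticulum. With each library taken as its difference from its group mean, r was 0.78 (Lamb1) to 0.97 (Serpinh1) for the same 10. Without MacA-2wk replicate 3 and MacB2-N replicate 3, r over the other 22 libraries was 0.96 (Igfbp4, Nptx1 and Lamb1) to 0.98, while r of the differences from group means was 0.30 (Lamb1) to 0.85 (Serpinh1), so the values within groups rested largely on those 2 libraries. Serpinh1 averaged 124 FPKM in MacB2-3wk and 12.3 in MacB2-N, and Pcolce 124 FPKM in MacB2-3wk and 6.70 in MacB2-N.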

How the data were processed

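RNA was sequenced from 24 sorted cell libraries in 8 groups of 3, prepared with a NuGen Ovation FFPE kit per the labels' protocols. The authors deposited 1 table of expression values, read here as FPKM because the submitters' processing notes name Cufflinks 2.0.2 beside TopHat2, FastQC and mm10, while the file header names no unit. Read counts were not used here, so absolute depth is unknown and no counting interval is given. The library sums ran from 1880240 to 4868370 FPKM. Most loci printed in the table did not match GRCm38 (8 of the 40 members overlapped), so gene positions were taken from GENCODE by Ensembl ID and upstream sequences from RefSeq GRCm38.p6.

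Values were transformed to log2(FPKM + 1), a pseudocount of 1, and genes whose mean stayed under 1 FPKM in all 8 groups were dropped, which left 17156 of 37979. limma 3.58.1 in R 4.3.3 was fitted to all 24 libraries with 8 group means, 16 residual degrees of freedom and a mean-variance trend, and p-values were adjusted by Benjamini and Hochberg over all genes tested. Groups came from the sample titles; the series' design text gives 1 group under another week than its titles do. Nothing in the labels says that replicates of different groups shared mice, so p-values measure the spread between pooled preparations. In MacB groups the replicate number marks the run lane, which pairs the libraries by lane; the correlations of same-numbered deviations from group means lay between -0.07 and 0.08 over the 8 comparisons.

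The members and the other gene lists were chosen with earlier results of these data known. Values by library are given for up to 3 members per role with the highest group means and for members a result turns on. Of other lists, up to 3 called genes per list and comparison with the smallest adjusted p are named, apart from those stated to be named after their values were seen. The alternatives were a pseudocount of 0.1, no filter, rescaling to the protein-coding sum, quantile normalization, a replicate block, a fit to the 2 groups compared and leaving out each library in turn.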

Additional observations from a re-analysis of the deposited data

How the results depend on the processing

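Of 4131 values of members under the alternatives, 119 changed sign, none of them of a gene called in that comparison, and 0 of 1365 values of other named genes did. The other named genes had been chosen as called ones with small adjusted p. Their signs were therefore unlikely to change, and they could only keep or lose a call. Under the scaling alternatives, the larger of higher and lower calls over all genes changed side in MacB2-N against MacA-N (1413 higher and 2246 lower after rescaling, 1660 and 1869 with quantile normalization, against 1838 and 1745), and with quantile normalization in MacB1-N against MacA-N and MacB3-2wk against MacB2-2wk. The median of all genes moved by over 0.1 after rescaling in MacB2-3wk against MacB2-N (0.10, against 0) and with quantile normalization in MacB1-N against MacA-N (-0.03, against 0.12). Of the results for single members, 3805 kept their side of the threshold, 186 lost a call and 140 gained one over all settings, and of those for other named genes 1163 kept it and 202 lost it.

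In MacA-2wk against MacA-N the 5 members called higher became 10 with a pseudocount of 0.1, 3 with quantile normalization and 0 with only these groups fitted, and the 5 other matrix genes became 9, 3 and 0. In MacB2-2wk against MacB2-N the fit to these groups alone called 3 members and 4 other genes, against 9 and 12. In MacB3-2wk against MacB2-2wk the 5 lower members became 2 with no filter, 2 after rescaling, 2 with quantile normalization and 8 with the replicate block, and the 15 other genes became 7 with no filter, 6 after rescaling and 8 with quantile normalization. In MacB3-3wk against MacB2-3wk the fit to these groups alone called 11 members and 13 other genes lower, against 0 and 2. In MacB3-3wk against MacB3-2wk the 7 members became 1 with a pseudocount of 0.1, no filter, rescaling or quantile normalization, and the 3 other genes became 1 with a pseudocount of 0.1, rescaling or quantile normalization, 6 with the replicate block and 7 with these groups alone. In MacB2-N against MacA-N, 2 members instead of 1 were called with a pseudocount of 0.1, with the replicate block or with these groups alone; the number is not a shared lane there. The replicate block moved no other count by more than 1.5 times.

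Leaving out MacA-2wk replicate 3 and MacB2-N replicate 3 together, chosen after seeing the data, gave 3 members and 3 other genes in MacA-2wk, 23 and 26 in MacB2-2wk, 20 and 44 lower in MacB3-2wk against MacB2-2wk, 13 and 16 lower in MacB3-3wk against MacB2-3wk, 22 and 30 in MacB3-3wk against MacB3-2wk and 3 members in MacB2-N against MacA-N. This also changes the spread shared by all groups.

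Without 1 library each, the counts of members and of other genes ran from 1 to 10 and 1 to 9 in MacA-2wk, 2 to 10 and 5 to 12 in MacB2-2wk, 26 to 31 and 45 to 47 in MacB2-3wk, 1 to 3 and 2 to 15 lower in MacB3-2wk against MacB2-2wk, 0 to 1 and 1 to 2 lower in MacB3-3wk against MacB2-3wk, 1 to 3 and 1 to 2 in MacB3-3wk against MacB3-2wk, 15 to 20 and 45 to 61 in MacB1-N, and 1 to 5 and 10 to 19 in MacB2-N against MacA-N. Other genes higher ran from 4 to 4 in MacB3-2wk and 2 to 4 in MacB3-3wk against MacB2. The causes of these moves were not tested.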
